A study of Mus musculus with 8 samples.

Results

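Intergenic open regions close to genes include the sequences next to a promoter and those just past the end of a gene. Enhancers, silencers and insulators, which bind sequence-specific factors and act on nearby promoters, are often found there. Thyroid hormone acts on such sequences through receptors that sit on DNA, often as partners of the retinoid X receptor, and recruit corepressors or coactivators. The type 2 deiodinase, encoded by Dio2, makes the active hormone T3 from T4 inside the cell.

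The regions described here were open in control liver and absent from Alb-D2KO liver, and lay in no gene body and outside 200 bp of any annotated transcript start, but within 5000 bp of a gene body. They numbered 1101, which is 13.7% of the 8031 lost regions (95% Wilson interval 12.97% to 14.5%) and 45.2% of the 2437 lost regions between genes. Of these, 539 (49.0%, 46.0% to 51.9%) were upstream of the start of the nearest gene and 562 (51.0%) downstream of its end. Within 5 kb, 190 regions (17.3%) were upstream of a gene and downstream of another, and the nearest gene decided their side. ATAC-seq, in which a transposase inserts adapters into open chromatin, was run on nuclei of frozen adult liver with 50000 nuclei a library and 4 libraries for each genotype, control and Alb-D2KO. The control mice were labelled Cre, and in Alb-D2KO mice Cre driven by the albumin promoter inactivates Dio2. The study calls this inactivation hepatocyte-specific, and the state of Dio2 in other liver cells was not examined here. The strain was C57BL/6 in the labels and C57BL/6J in the study's methods. The nuclei came from whole liver, and fewer nuclei of a cell type and less open chromatin per nucleus cannot be told apart.

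Each list was one call over pooled libraries, so the values below carry no replicate error, and the intervals cover counting error over regions only. A lost region was one that the pooled control call held and that overlapped no region of the pooled Alb-D2KO call. Counted from the highest region number in its list, the control call held at least 22368 regions. The 8031 lost regions are at most 35.9% of that call, which is the contrast the choice of regions rests on. By the same reading the Alb-D2KO call held at least 14825 regions, which is more than the study states for Alb-D2KO liver. The lists do not give the sequencing depth behind either call. Control regions that both calls shared were not used here, and the counts therefore say where lost regions lay and not whether loss was more frequent there. The nearest lost region to Dio2 on chromosome 12 was 930102 bp away, so the lists hold no check of the inactivated gene itself. The study describes hepatic Dio2 expression as brief and neonatal, and silent later, whereas these livers were adult.

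Sequences around the summits of 8 of the regions are given first, because they hold the motifs to which the counts below refer. Each is a window of the summit and 100 bases on each side, read from the plus strand of mm10, with capitals marking every motif match on either strand. The windows were chosen for a high signal or for a motif described below.
Cebpa downstream, chr7:35122811-35123011: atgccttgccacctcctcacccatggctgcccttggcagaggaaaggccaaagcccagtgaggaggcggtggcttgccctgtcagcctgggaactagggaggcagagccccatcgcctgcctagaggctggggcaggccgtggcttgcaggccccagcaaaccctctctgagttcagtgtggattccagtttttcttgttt
Gpt2 upstream, chr8:85488700-85488900: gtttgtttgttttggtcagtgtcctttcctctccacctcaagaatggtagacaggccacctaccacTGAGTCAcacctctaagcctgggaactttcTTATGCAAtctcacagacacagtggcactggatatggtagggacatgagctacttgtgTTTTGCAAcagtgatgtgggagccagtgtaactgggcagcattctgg
Ppara upstream, chr15:85732738-85732938: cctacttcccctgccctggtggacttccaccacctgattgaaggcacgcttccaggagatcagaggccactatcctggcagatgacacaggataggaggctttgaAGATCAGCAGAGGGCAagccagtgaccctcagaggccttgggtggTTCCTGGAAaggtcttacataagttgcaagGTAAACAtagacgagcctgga
Thrb upstream, chr14:17659125-17659325: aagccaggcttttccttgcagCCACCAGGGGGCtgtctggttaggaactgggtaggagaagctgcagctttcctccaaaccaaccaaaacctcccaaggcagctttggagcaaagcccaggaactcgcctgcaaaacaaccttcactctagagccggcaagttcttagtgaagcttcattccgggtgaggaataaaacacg
Apoc1 upstream, chr7:19693359-19693559: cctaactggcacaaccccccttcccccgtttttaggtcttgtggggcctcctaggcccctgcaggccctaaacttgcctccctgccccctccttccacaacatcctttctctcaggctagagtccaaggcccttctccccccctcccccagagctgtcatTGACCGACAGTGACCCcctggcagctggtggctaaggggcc
Foxo1 upstream, chr3:52267915-52268115: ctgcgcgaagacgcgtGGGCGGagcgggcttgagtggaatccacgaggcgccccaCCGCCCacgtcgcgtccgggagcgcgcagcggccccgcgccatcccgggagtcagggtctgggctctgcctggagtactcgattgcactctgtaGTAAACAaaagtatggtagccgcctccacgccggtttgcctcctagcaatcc
Fgb upstream, chr3:83052175-83052375: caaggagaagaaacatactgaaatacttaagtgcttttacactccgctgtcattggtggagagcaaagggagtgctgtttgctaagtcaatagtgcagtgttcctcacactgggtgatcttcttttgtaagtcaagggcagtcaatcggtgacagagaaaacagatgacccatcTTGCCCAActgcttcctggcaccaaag
Slc38a3 downstream, chr9:107645674-107645874: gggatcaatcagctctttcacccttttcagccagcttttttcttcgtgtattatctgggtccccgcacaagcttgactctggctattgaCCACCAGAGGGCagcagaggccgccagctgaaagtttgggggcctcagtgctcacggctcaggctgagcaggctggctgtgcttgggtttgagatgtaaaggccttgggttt
The window downstream of Cebpa, the lost intergenic region near a gene with the highest signal, held none of the 16 motifs searched. That window covers only a small part of the region, which was 1750 bp wide. The Gpt2 window held 2 C/EBP sites at bases 97 to 104 and 155 to 162, counted from 1 at the first base, and an AP-1 site at bases 67 to 73. The Ppara window held a STAT site, a FOXA site and, at bases 106 to 121, a DR4 element, meaning 2 copies of AGGTCA in the same direction with 4 bases between them, each with up to 1 mismatch. DR4 elements are a form of binding site that thyroid hormone receptors share with other nuclear receptors. The Apoc1 window held a DR4 element on the minus strand, at bases 161 to 176. The Thrb and Slc38a3 windows each held the CTCF core, the sequence bound by the insulator protein CTCF. In the Foxo1 window, 2 GC boxes (GGGCGG, bound by SP and KLF factors) stood beside a FOXA site. A C/EBP site was the only motif found in the Fgb window.

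The lost intergenic regions grew denser towards genes. Placed by their summits, they numbered 4.13 per Mb of intergenic sequence within 5 kb of a gene, against 1.73 per Mb at 5 to 50 kb and 0.274 per Mb beyond 50 kb. Upstream of starts the density was 4.85 per Mb in the first 1 kb and 3.599 per Mb at 4 to 5 kb. Downstream of ends it was 4.03 per Mb in the first 1 kb, highest at 1 to 2 kb with 5.01 per Mb, and 3.23 per Mb at 4 to 5 kb. Regions that overlapped a gene were left out while the sequence just past its end was counted, so summits there are undercounted. By edge-to-edge distance, the first 1 kb past ends held 174 regions, against 131 at 1 to 2 kb. How all open regions were spread around genes was not analysed here. The median edge-to-edge distance was 1940 bp upstream and 1811 bp downstream. By chromosome the 1101 regions made up from 7.50% of the lost regions (X) to 17.5% (chromosome 7) among chromosomes 1 to 19 and X.

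**Figure D1:**
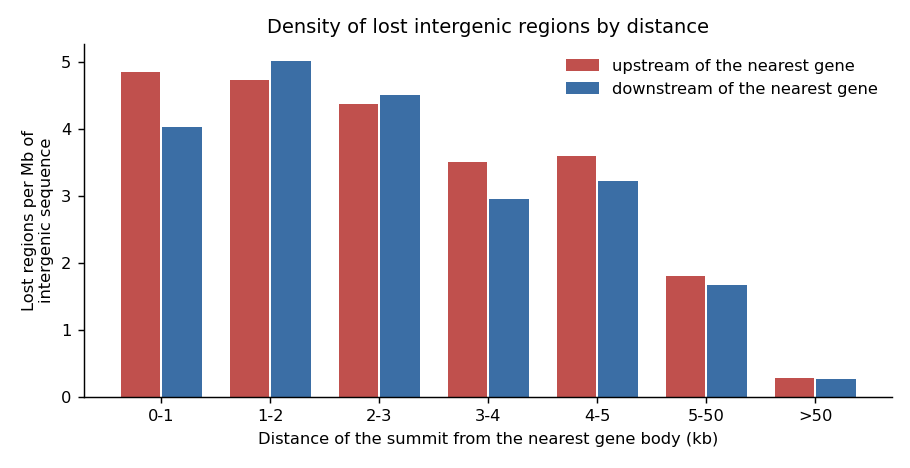
Lost intergenic regions per Mb of intergenic sequence (vertical axis) by the distance of the summit from the nearest gene body (horizontal axis, kb), with red bars upstream of the gene start and blue bars downstream of the gene end. Within 5 kb the bars stand between 2.95 and 5.01 per Mb on both sides, and beyond 50 kb both are below 0.3 per Mb.

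Signal was read as the area under the curve (AUC) of the −log10 p of a region, which grows with both height and width. Its lowest value among the 1101 regions was 200.02, at the floor shared with the other lost regions. The median AUC was 276 (quartiles 232 and 340), near the 278 of all 8031 lost regions. Lost promoter regions had a median of 304, and lost regions more than 50 kb from a gene had 249. Upstream and downstream regions had medians of 272 and 278, whose 95% intervals over regions overlapped (262 to 281 and 269 to 289). The median width was 295 bp, against 392 bp in lost promoters. An AUC of at least 300 was reached by 439 of the regions (39.9%).

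**Figure D2:**
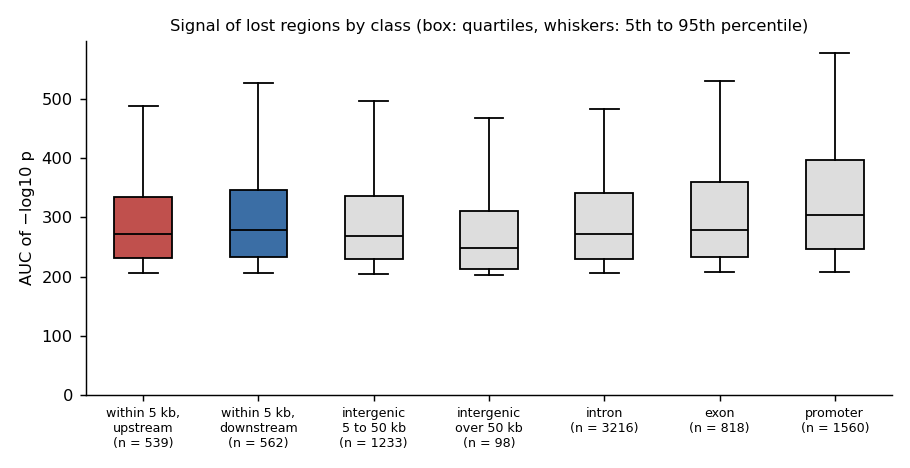
AUC of −log10 p (vertical axis) of lost regions in 7 classes, with the box from the first to the third quartile, the line at the median and whiskers from the 5th to the 95th percentile over regions. The red and blue boxes, upstream and downstream within 5 kb of genes, have medians of 272 and 278, below the promoter median of 304.

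Among the downstream regions, the highest signals lay past Cebpa, Alas1 and a small RNA gene. Cebpa, which encodes the liver and fat transcription factor C/EBPα (gene at chr7:35119293-35121928), had a region 194 bp past its end with an AUC of 1737 over 1750 bp. The region past Alas1, the gene of the first enzyme of heme synthesis, was 2703 bp wide, began 58 bp from the gene and had an AUC of 939. The −log10 q at its summit was 2.63, below the median of 3.18 over the 1101 regions, while the Cebpa summit had 3.75. Past the small RNA gene Gm27702 the AUC was 920, and RefSeq gives the nuclear noncoding RNA gene Neat1 as the nearest gene of that region. These 3 AUCs were the highest on either side of genes. A second region, 813 bp past Gm27702, had an AUC of 448. The Apoe region, 354 bp past the gene of the lipoprotein ligand apolipoprotein E, had an AUC of 823. Past Gpx1, which encodes a selenium-dependent glutathione peroxidase, it was 804. Errfi1, a feedback inhibitor of the EGF receptor, had a region with an AUC of 739 at 469 bp. Regions past Herpud1, a gene of endoplasmic reticulum stress, and past the noncoding gene Gm48395 followed, with AUCs of 698 and 694. Of these 8 genes, Alas1, Gm27702 and Errfi1 also had a lost promoter region. The regions past Cebpa, Apoe and Gpx1 also lay within 5 kb upstream of another gene.

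The upstream regions reached lower maxima. The highest AUC was 796, at 1206 bp before Wbp2, which encodes a WW domain binding coactivator. Gpt2, the mitochondrial alanine aminotransferase, followed with 786 at 3635 bp. Ppara, the fatty acid receptor that drives hepatic fat oxidation, had a region of 1139 bp with an AUC of 730 at 1927 bp, and its promoter was in the lost list too. The noncoding genes Gm14319 and Gm24475 had upstream regions with AUCs of 690.4 and 690.2. Hsd17b2, whose enzyme inactivates estradiol and testosterone, had one with an AUC of 663 at 354 bp, and that region falls in a start window of RefSeq, as does the one upstream of Tnrc18. Birc5, the gene of the mitotic protein survivin, had 2 regions 248 bp apart with AUCs of 651 and 378, of which the first held a DR4 element. The remaining 5 of the 12 highest upstream values, from 549 to 617, were near AC127342.1, Gm36495, Wdr18, Tnrc18 and Pnrc2. Wdr18 and Tnrc18 also had a lost promoter region.

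Most genes had a single lost region beside them. The 1101 regions had 1004 distinct nearest genes, of which 920 had 1 region, 72 had 2 and 12 had 3 or more. A total of 23 genes had both an upstream and a downstream region. Sdc4, the gene of the cell surface proteoglycan syndecan-4, had the most, with 1 region upstream (AUC 423) and 3 downstream (305, 240.0 and 392), beside 2 further lost regions in its introns. Apoc1, a small apolipoprotein gene beside Apoe, had 3, with AUCs of 410.2 upstream and 200.4 and 409.5 downstream. With the Apoe region, 4 lost intergenic regions and 2 in the body of Apoc1 lay between the end of Apoe and the sequence past Apoc1. Fgb, the fibrinogen beta chain gene, had regions with AUCs of 260 upstream and 264 and 321 downstream. RefSeq puts the one of 321 on a start window and gives Gm40075 as the nearest gene of both downstream regions. Slc38a3, a glutamine transporter gene, had AUCs of 421 upstream and 271 and 237 downstream, and a lost promoter region.

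The other genes with 3 regions were mostly noncoding or pseudogenes. They were AC151478.3, B230206L02Rik, Gm12984, Gm13065, Gm13094 and Gm14319, together with the coding genes Gm16253 and Zbtb7c. RefSeq puts all regions of B230206L02Rik, Gm13065 and Gm14319, and part of those of Zbtb7c and Gm12984, in a gene body. In the RefSeq annotation the 3 regions upstream of AC151478.3 (AUC 373, 366 and 212) have Scd1, the stearoyl-CoA desaturase gene, as nearest gene, at more than 5 kb. Their AUCs ranged over all 8 genes from 206 to 690.4.

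**Figure D3:**
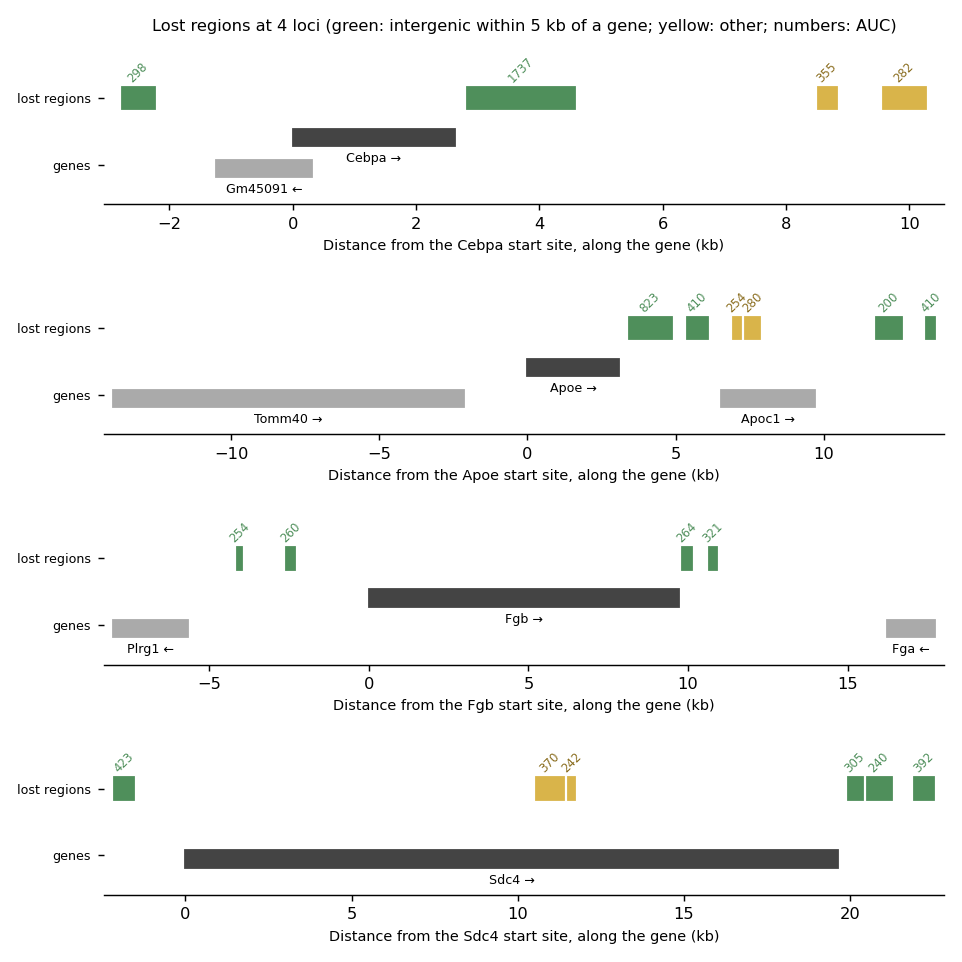
Lost regions along the loci of Cebpa, Apoe, Fgb and Sdc4, with the distance from the gene's start in kb along its direction on the horizontal axis, genes as grey bars with an arrow for direction and the AUC printed over each region. Green regions are intergenic within 5 kb of a gene and yellow ones are other lost regions, and the Cebpa region past the gene end is the highest at 1737.

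Most of the lost regions beside genes had no other lost region within 5 kb. Another lost region lay within 5 kb of 323 of them (29.3%, 26.7% to 32.1%), against 25.4% of all lost regions. The share was 28.4% in lost exon regions, 25.8% in introns and 25.2% in promoters. It was 20.2% in lost intergenic regions at 5 to 50 kb and 12.2% beyond 50 kb. The spacing of all open regions was not analysed here. By the numbering of the control call, 40.4% of the 2202 places just before or after one of the regions were held by another lost region, against 41.9% for all lost regions. By this measure, which is free of base-pair spacing, the regions near genes did not have neighbours in the lost list more often than the list as a whole. The nearest gene also had a lost promoter region for 137 regions (12.4%). That held for 8.52% of lost intergenic regions at 5 to 50 kb and 3.06% beyond 50 kb, and for 15.0% of lost exon and 18.3% of lost intron regions. Over all lost regions, which include the promoters themselves, the share was 30.01%. The nearest gene had a lost region in or on it for 333 regions. A total of 628 regions (57.04%) had no other lost region within 5 kb, nor one in or on the nearest gene.

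Protein-coding genes were the nearest gene of 725 regions (65.8%), long noncoding genes of 199, pseudogenes of 136 and small RNA genes of 41. The 661 coding genes among them are 3.0% of the 22028 annotated. Of these 661 genes, 100 (15.1%) had a lost promoter region, against 5.92% of all coding genes, and 37.5% had a lost region in or on the gene, against 15.6%. How many open regions each gene had in control liver was not analysed here. Among microRNA genes, Mir148a, the source of a microRNA abundant in liver, had a CpG-rich region 930 bp upstream with an AUC of 453. Its mature product is shown with the seed, bases 2 to 8, in capitals, as RefSeq gives it.
mmu-miR-148a-3p: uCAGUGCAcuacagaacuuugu

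Lists of liver genes were read by how many of their genes were nearest to one of the regions, beside the 3.0% of all coding genes. Plasma protein, acute phase, complement and coagulation genes held 13 of 65 (20%), with 18 regions whose median AUC was 291. Alb itself, the gene of serum albumin, had a region 30 bp past its end with an AUC of 596 over 1411 bp. The −log10 q at the summit of that region was 2.54, against a median of 3.18 over the 1101 regions. Ahsg, which encodes fetuin-A, had one with an AUC of 521 at 345 bp past its end. Saa3, an acute phase serum amyloid gene, had one upstream with an AUC of 386, and C3, the central complement component, had 2 upstream with 384 and 224. The remaining 9 genes of the list were Itih3, Saa1, F11, Fgb, Serpina6, Trf, F5, Serping1 and C1s1, with AUCs from 208 to 351. Ahsg and Serpina6 also had lost promoter regions.

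Liver transcription factor genes held 4 of 24, beginning with Cebpa. Foxa3, a pioneer factor of the hepatocyte, had a downstream region with an AUC of 444, and Klf15, a regulator of fasting metabolism, had one with 340.0 and a lost promoter. Nr0b2, the corepressor SHP, had one upstream with 204. Nuclear receptor and thyroid hormone genes held 3 of 32, all upstream. Beside Ppara (730) they were Thrb, the gene of thyroid hormone receptor beta, the main receptor of the liver, with 438 at 761 bp, and Nr1i3, the xenobiotic receptor CAR, with 252 at 784 bp. The Thrb region is the one whose window holds the CTCF core, and Thrb had no lost promoter region.

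Genes of glucose and insulin signalling held 4 of 27. G6pc, the glucose-6-phosphatase gene of glucose output, had a downstream region with an AUC of 510.1 and a lost promoter. Foxo1, which drives gluconeogenic genes when insulin is low, had an upstream region with 455 at 239 bp, and Igfbp2 and Pdk4 had 390 downstream and 221 upstream. Lipid and cholesterol genes held 5 of 49, all upstream. Insig2, which retains SREBP in the endoplasmic reticulum, had an AUC of 315. Cpt1a, the entry step of mitochondrial fat oxidation, had 304, Fabp1 253, Fads2 222 and Plin2 200.4. Promoters of Cpt1a, Fabp1 and Fads2 were in the lost list too. Apolipoprotein genes held 2 of 15, Apoe and Apoc1.

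Cytochrome P450 and conjugation genes held 5 of 45. Sult1a1, a phenol sulfotransferase gene, had 2 upstream regions with AUCs of 509 and 425, and the others were Cyp2d26 (296), Cyp2d9 (272), Cyp3a13 (264) and Gstp1 (206). The promoters of Cyp2d26, Cyp2d9 and Cyp3a13 were lost as well. Growth hormone, cytokine and immediate early genes held 4 of 42. They were Jund, an AP-1 subunit, with 384, Nfkbia, the inhibitor of NF-κB, with 304, Socs3, a feedback inhibitor of cytokine signalling, with 302, and Ier2 with 256. Over all lists 41 of 354 genes (11.6%) were nearest to a region, with 49 regions of median AUC 304. Markers of other liver cells held 1 of 56, which was Oit3 of endothelial cells with an AUC of 315, while 0 of 14 Kupffer cell, 0 of 12 stellate cell, 0 of 9 cholangiocyte and 0 of 9 lymphocyte markers were nearest to one. How many of the listed genes had an open region nearby in control liver was not analysed here, so these shares do not compare loss between lists.

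The base composition set part of the upstream regions apart from the downstream ones. The median G+C content was 50.9% and the median CpG observed over expected 0.242, against 60.0% and 0.624 in lost promoters. Lost intergenic regions at 5 to 50 kb had medians of 50.4% and 0.251. A region was counted as CpG-rich when it was at least 200 bp wide, had over 50% G+C and a ratio over 0.6. That held for 37 upstream regions (6.86%, 5.02% to 9.32%) and 13 downstream regions (2.31%, 1.36% to 3.92%), and for 48.2% of lost promoters. In the first 1 kb upstream of starts 26 of 157 regions (16.6%) were CpG-rich, and in the first 1 kb past ends 1 of 174 (0.575%). From 1 kb on, upstream and downstream shares lay between 1.77% and 3.75%. CpG-rich regions included those upstream of Foxo1 and Mir148a, both named above, and Jund.

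**Figure D4:**
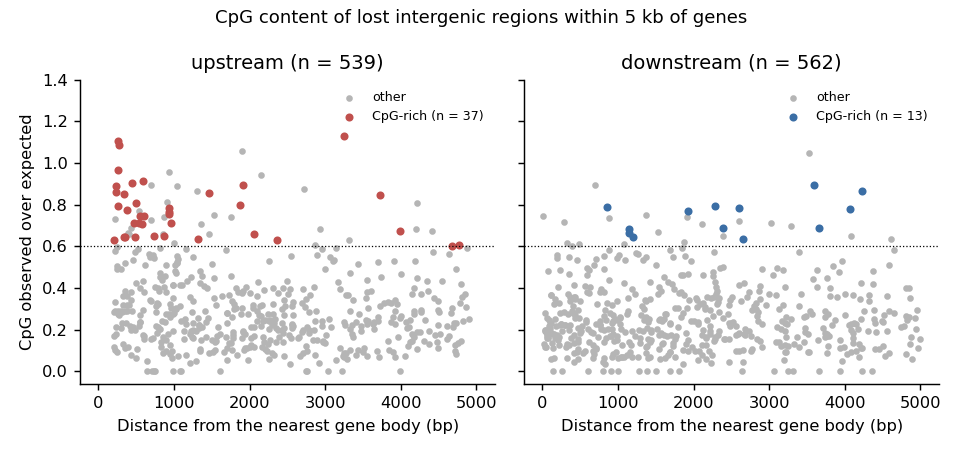
CpG observed over expected (vertical axis) against distance from the nearest gene body (horizontal axis, bp) for 539 upstream regions (left) and 562 downstream regions (right), one point per region, with CpG-rich ones coloured and the dotted line at 0.6. The coloured upstream points gather within 1000 bp of the start (26 of 37), and 1 of the 13 downstream ones lies within 1000 bp of the end. Grey points over the line were narrower than 200 bp or had at most 50% G+C.

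Where RefSeq was read in place of GENCODE, 794 of the 1101 regions (72.1%) were still intergenic within 5 kb of a gene. RefSeq put 64 of them (5.81%), 40 upstream and 24 downstream, on a start window, 168 in a gene body and 75 farther than 5 kb from a gene. The 40 upstream regions on a RefSeq start had a median AUC of 305 and 22.5% were CpG-rich, against 265 and 5.90% for the 373 upstream regions that were intergenic within 5 kb in both annotations. These 64 regions would count as promoters under RefSeq.

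In these summit windows the CTCF core was more frequent than in lost promoters, and GC boxes and ETS sites were less frequent. The CTCF core was found in 110 of the 1101 windows (9.99%, 8.36% to 11.9%), as often as in lost intergenic regions at 5 to 50 kb (9.98%), against 6.56% of all lost windows and 2.56% of lost promoters. Among regions with an AUC of at least 300 it was in 7.29%, against 3.66% of all lost regions that strong. GC boxes were in 8.90% of the windows, against 39.9% of lost promoters and 46.0% of the 50 CpG-rich regions near genes. Lost intergenic regions at 5 to 50 kb had them in 6.65%. The ETS site (CCGGAAG), frequent in promoters, was in 1.09% of the windows, against 1.14% at 5 to 50 kb and 7.05% in lost promoters.

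Sites of hepatocyte factors were compared with all lost regions and with the classes most alike in position. The C/EBP site (TTGCNNAA) was in 12.99% of the windows and 14.3% of all lost windows, the FOXA site (TGTTTAC) in 4.63% and 5.01%, the HNF4A site (CAAAGTCCA) in 1.998% and 2.37% and the HNF1 part site (GTTAATNAT) in 1.45% and 1.37%. At least 1 of 5 liver factor motifs was in 21.5% (19.2% to 24.1%) and 23.1%. That share was 25.2% (22.9% to 27.7%) in lost intergenic regions at 5 to 50 kb, 40.8% beyond 50 kb, 27.1% in introns and 14.6% in promoters, so the regions near genes lay between promoters and the regions farther away. The C/EBP site alone followed the same order, with 16.4% at 5 to 50 kb and 27.6% beyond 50 kb. The nuclear receptor half-site AGGTCA was in 24.7% and 23.8%, and the DR4 element, which allows mismatches, in 34 windows (3.09%, against 2.79%). The DR1 site (CAAAGGTCA), which contains the half-site, was in 2.09% and 2.13%. The STAT site (TTCNNNGAA), the kind bound in growth hormone and cytokine signalling, was in 8.17% and 6.84%, and the AP-1 site (TGANTCA) in 6.90% and 6.96%. The E-box (CACGTG) was in 4.09% and 5.81% and the NFY box (CCAATCA) in 2.91% and 2.78%. The CRE (TGACGTCA) was in 3 windows and the NRF1 core (GCGCATGCG) in 0. A match is a description of the letters and not of a bound site.

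**Figure D5:**
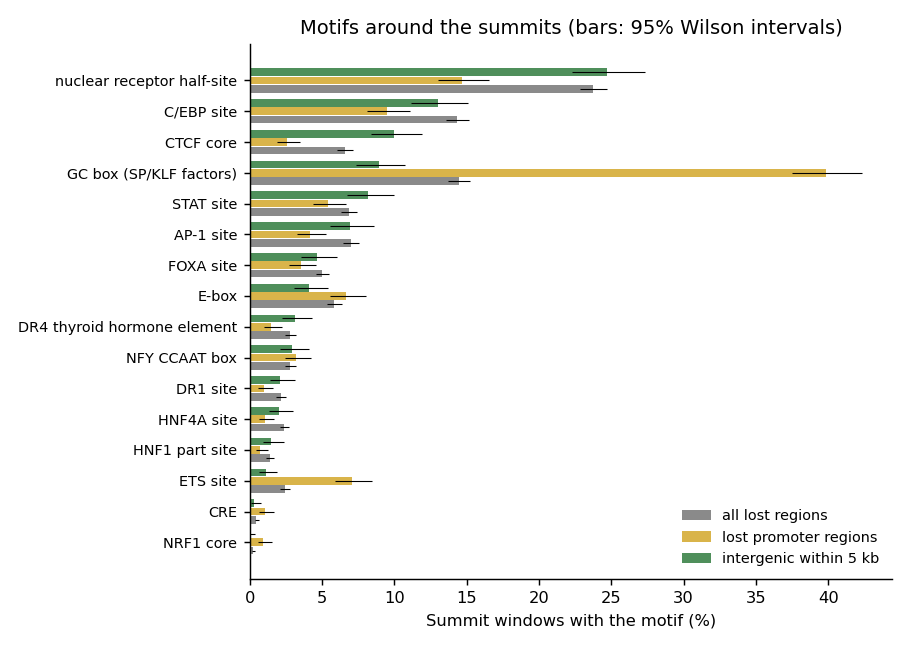
Share of summit windows (100 bases on each side) with each of 16 motifs (horizontal axis, %), for lost intergenic regions within 5 kb of genes (green), lost promoters (yellow) and all lost regions (grey), with lines for 95% Wilson intervals over regions. Green and yellow bars stand apart at the CTCF core (9.99% and 2.56%) and at the GC box (8.90% and 39.9%).

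Regions open only in Alb-D2KO liver were few under the same rule, 30 of 250 (12%, 8.54% to 16.6%), with 17 upstream and 13 downstream and a median AUC of 217. Their AUCs reached 511, at Smok2a, and 19 of them had a protein-coding nearest gene. At the 5000 bp limit, the 3 lost regions just inside lay 4997, 4967 and 4960 bp past the ends of Cyb5a, Cby3 and Fam114a1, with AUCs of 560, 200.5 and 265. The 3 just outside lay at 5015, 5019 and 5036 bp from Clstn3, Gm44962 and Gm32939, with AUCs of 379, 214 and 215.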

How the data were processed

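ATAC-seq libraries of 4 control and 4 Alb-D2KO livers were studied. Per the study's methods the authors trimmed adapters with NGmerge, aligned reads to mm10 and removed duplicate and poorly mapped reads. BWA 0.7.17 and Genrich 0.6 are named in the submitters' processing notes. Run on single libraries, Genrich found only a few regions, which the authors judged not to come from ATAC enrichment. Those regions became a blacklist. Outside it the authors ran Genrich on all libraries of a group at once, and subtracted the regions that overlapped the other genotype. In the deposited lists the signal (AUC) is the area under the −log10 p of a region, and the deposited −log10 q is that of the summit. The deposited score was not used in any result. The lists do not give the depth of a library.

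Regions were classed, in this order, as promoter (200 bp around a GENCODE M21 transcript start), exon, intron or intergenic, and distances were measured edge to edge to the nearest gene body. GENCODE M21 is an mm10 annotation and not the release that the study names. Densities used summits and the length of intergenic sequence. Sequence came from the RefSeq copy of the same build (GRCm38), and motifs were searched on both strands, without mismatch except in DR4, in windows of 100 bases on each side of the summit. Wilson intervals have a 95% level. Scripts ran in Python 3.11.15 with pandas 2.3.3 and pysam 0.24.0 and were tested on simulated regions. Alternatives were q and AUC thresholds, width, distance limit, start window, midpoint, annotation and window length. Named genes were those of the 12 upstream and 8 downstream regions with the highest AUC, genes with at least 3 regions, up to 4 genes per list by AUC (further list genes, Mir148a and Smok2a were named after their values were seen) and the 3 regions on each side of the limit. The regions, gene lists and motifs were chosen with earlier results of these data known, and no test of significance was run.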

Additional observations from a re-analysis of the deposited data

How the results depend on the processing

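The count of 1101 regions, its share of 13.7%, the upstream share of 49.0%, the median AUC of 276 and the median width of 295 bp depended on the settings as follows. A q threshold of 0.001 gave a share of 14.9%, a median AUC of 295 and a width of 276 bp. An AUC of at least 300 left 439 regions with a median AUC of 363 and a width of 386 bp, and a width of at least 200 bp gave 12.5%, 295 and 338 bp. Limits of 1000 and 2000 bp gave 331 and 581 regions (4.12% and 7.23%), the first with a median AUC of 266, and a limit of 10000 bp gave 19.7%. A start window of 1000 bp gave a share of 11.5% with 41.4% upstream. Classing by midpoint gave 14.6%, protein-coding genes alone 11.4% with 53.1% upstream, and intergenic in both annotations, chosen after seeing the data, 10.8%. Windows of 50 and 200 bases on each side of the summit held a liver factor motif in 10.6% and 31.6%, against 21.5%. Listed genes nearest to a region numbered 25 with an AUC of at least 300, against 41, and 118 regions had another lost region within 1 kb, against 323 within 5 kb. Which side held more regions was not stable. The upstream share was also above 50% when the midpoint decided (50.6%) and when the nearest coding gene decided the side (51.8%). No paired analysis was possible because both lists are pooled calls with no value per library, and no library could be left out. What the pooled calls limit is that a region just under the caller's threshold in Alb-D2KO liver and one that closed cannot be told apart.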
